A study of Mus musculus with 6 samples.

Results

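The control siRNA group comprised 3 of the 6 arrays of the study, and the expression level of every gene on those 3 arrays is described here. The arrays were chosen by their label alone, as cells given control siRNA. The cells were MIN6, a mouse insulinoma line that makes and secretes insulin and is widely used as a stand-in for the pancreatic beta cell. Each control sample had been electroporated with 100 pmol of control siRNA, and the other 3 samples with 100 pmol of an siRNA to TDP-43, which the gene Tardbp encodes and which binds RNA. All samples therefore shared electroporation, siRNA and culture in serum with antibiotics and β-mercaptoethanol, and no sample was left without electroporation. MIN6 is 1 tumour-derived line, and nothing in the labels says that the 3 control samples came from separate cultures, so the spreads given here may be technical.

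A beta cell couples the breakdown of glucose to the release of insulin. Glucose enters through the transporter Slc2a2, its metabolism closes a potassium channel built from Abcc8 and Kcnj11, calcium flows in, and granules packed with insulin and amylin fuse with the membrane. Transcription factors such as Pdx1, Nkx6-1 and Neurod1 hold this programme in place. Mature beta cells also keep a group of widely used genes low, among them the lactate enzyme Ldha.

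Levels are given as the MAS5 signal of each array, a linear intensity, or as log2(signal + 12). A total of 18193 genes had a probe set assigned to a single gene, and the brightest probe set stood for each gene. A probe set's brightness depends on its probes as well as on the transcript, so a rank orders signals and is no count of molecules. For a floor, 38 olfactory receptor genes, which serve mainly in the nose, were taken, and on each array the 95th percentile of their levels was the reference. The reference lay at signals of 41.0, 58.3 and 52.0 on control arrays 1, 2 and 3, a mean of 5.95 on the log2 scale. By limma's one-sided test against that reference, with Benjamini-Hochberg adjusted p under 0.05 over all genes, 11331 of 18193 genes (62.3%) were above it. The reference was shared by all genes of an array, so its shift between arrays entered the standard error of every gene, which ran from 0.169 to 0.253. That error followed a gene's level and hardly its own spread. Lama5, with an SD of 1.95 among the 3 arrays, had 0.174, and Marchf10, with an SD of 1.19, had 0.206. Every gene with a mean level from 6.34 upward was called, so the call acted as a cut on mean level. A called gene could lie under the reference on 1 array, as Marchf10 did with 19.7 on array 1. The adjusted p-values and intervals given here therefore do not measure a gene's own spread among arrays. Of the olfactory receptors themselves, 1 of 38 (Olfr140) was called, and their median level was 5.00. The reference was set from these same genes, so few of them could be called and the count is no check on it.

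The 3 arrays were alike in general signal. Their median signals were 72.3, 79.97 and 76.2. The 3' minus 5' difference of the Gapdh controls, which reflects how intact the RNA was, was -0.39, -0.40 and -0.40 on the log2 scale. Tardbp, the siRNA target, ranked 1187 with signals of 3748, 3940 and 3699 on the control arrays, against 2257, 2249 and 1836 on the TDP siRNA arrays, and these ranges did not overlap.

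Among genes with a single-gene probe set, the brightest signals of control MIN6 cells came from protein synthesis and from the secretory granule. Probe sets with several genes or none were not ranked, and 14 of them were brighter than the 25th gene. Ribosomal protein and translation genes shared the top of the list with the granins Scg2, Chgb and Chga, the amylin gene Iapp, the peptide gene Npy and the transport protein gene Ttr. The 25 brightest genes had mean signals between 17622 and 24832. Their SD among the 3 arrays ran from 0.0217 to 0.121 on the log2 scale.

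Rps29, a protein of the small ribosomal subunit, was the brightest gene, with signals of 23867, 24659 and 25970 (mean 24832 ± 1062, SD, n = 3). Ttr, which carries thyroid hormone and retinol-binding protein and is made by islet cells as well as liver, came second with 21621, 22827 and 23853. Eef1a1, the elongation factor that brings aminoacyl-tRNA to the ribosome, had 22078, 22469 and 23410. All of them were lowest on array 1 and highest on array 3. The next 3 genes belonged to the islet. Scg2, a granin that helps granules form, had 21411, 22489 and 24018. Iapp, the amylin that is released together with insulin, had 21199, 20596 and 23354, and G6pc2, the islet glucose-6-phosphatase, had 19588, 21494 and 21855. From rank 2 to rank 6 the range of each gene overlapped that of the next, while the range of Eef1a1 lay wholly above that of G6pc2.

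Further down the 25, Npy at rank 8 had signals of 20748, 20856 and 20177, the lowest on array 3. Cpe, the carboxypeptidase that trims prohormones, stood at rank 11 (19288, 19813 and 21347), and Chgb at rank 12 (18561, 20727 and 20733). Chga, the granin whose fragments act as hormones, stood at rank 24 with 17038, 17362 and 18616. Ribosomal proteins took 7 of the 25 places, with Rpl38, Rps28, Rpl13a, Rps10, Rpl41 and Rplp2 beside Rps29. The remaining places went to Tpt1, Atp6ap2, the mitochondrial gene ND5, the chaperone Hspa8, the cytochrome oxidase subunit Cox7a2, the histone variant H2az1, the kinetochore gene Spc25, the glycolytic enzyme Pgk1 and the aldehyde reductase Akr1a1. Array 3 held the highest signal for 19 of the 25 genes, array 2 for 5 and array 1 for 1. Over all genes above the reference, array 3 was the highest for 37.9%.

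Akr1a1 was the last of the 25 with a level of 14.106, and Rps14 followed with 14.104, so the limit of the list fell between values that 3 arrays could not separate. On the TDP siRNA arrays 20 of the 25 were again among the brightest 25. Akr1a1 stood at rank 154 there. For 17 of the 25 genes the brightest probe set carried a suffix that marks probes able to read more than 1 transcript. Probe sets of 1 gene can also differ widely. For Spc25 the brightest probe set gave 17178, 18122 and 18126 and the other 492, 437 and 408, and the reason was not tested. The Ttr probe sets by contrast all lay between 14.11 and 14.47. Iapp had probe sets at 14.41 and 14.23, one that gave 15353, 16619 and 17238, and one at 11.38 that gave 1810, 5967 and 1735.

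**Figure D1:**
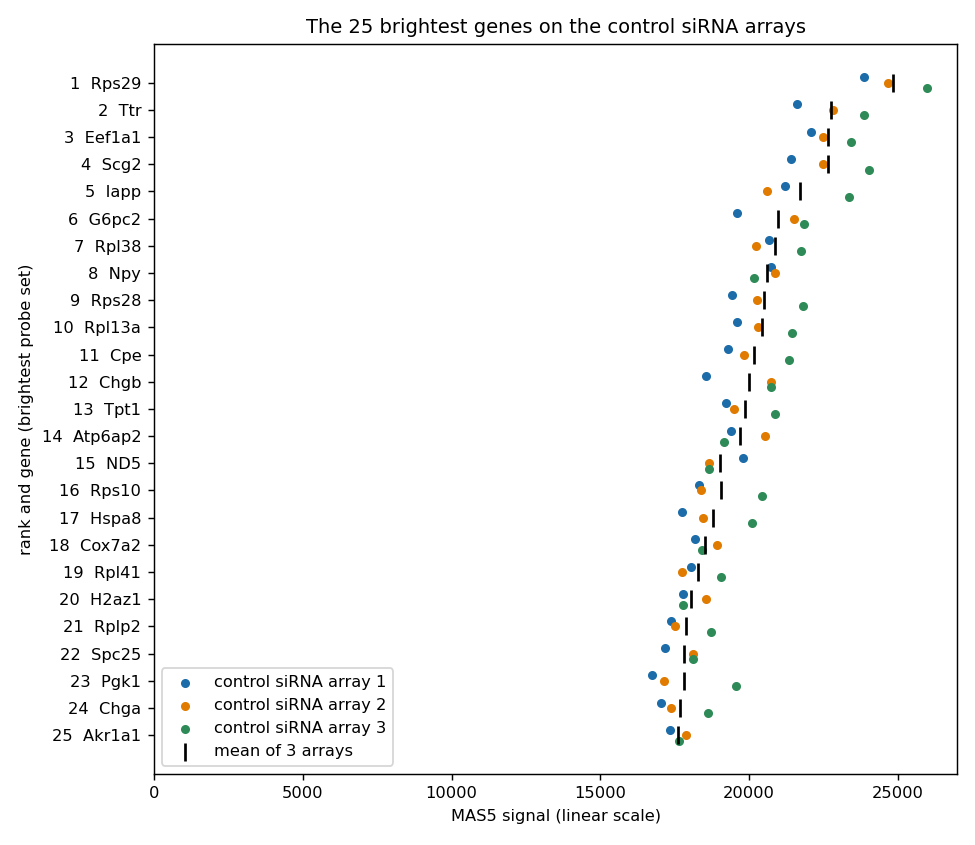
MAS5 signal on a linear scale (horizontal axis) of the 25 brightest genes, ordered by rank, with 1 point for each control siRNA array and a bar at the mean of the 3. Array 3 (green) gave the highest signal for 19 of the 25 genes, against 37.9% of all genes above the reference. Rps29 lies wholly above Ttr at rank 2.

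Gene families showed the same picture. Cytosolic ribosomal proteins had 43 of 44 measured members above the reference, a median level of 13.71 and 22 members among the brightest 100 genes. The median over all 18193 genes was 7.85, and 62.3% of them were above the reference. Respiratory chain and ATP synthase subunits had 88 of 91 above the reference with a median of 12.69, and 12 of them were among the brightest 100. Subunits of the vacuolar ATPase, the proton pump that acidifies granules, had 18 of 22 above it with a median of 12.29. Proteasome subunits had 37 of 39 with a median of 12.03, and Rab GTPases, the switches of vesicle traffic, 49 of 59 with a median of 9.83.

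Hormone genes divided into a few very bright ones and a larger number near the floor. Of 19 measured hormones and islet peptides, 10 were above the reference, against 62.3% of all genes. Ins2 ranked 405 with signals of 7959, 6936 and 8327, which put its mean level 6.96 above the reference (95% interval 6.63 to 7.30). Its only single-gene probe set has a suffix for shared probes, and transcripts of the near-identical Ins1, which had no single-gene probe set in the annotation used, may be read by it.

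Gcg, the glucagon gene that is normally the mark of the alpha cell, was bright in these cells at rank 271. Its signals were 9792, 10654 and 7345, lowest on array 3. Cck, the gut and brain peptide cholecystokinin, ranked 70 with 14152, 15101 and 15724. Ucn3, a peptide of mature beta cells, ranked 526 with 5954, 5816 and 8061, highest on array 3. Nucb2, the precursor of nesfatin, and Cartpt, a peptide of brain and islets, were also above the reference at ranks 1213 and 3248. Gal and Pyy passed only narrowly, Pyy with 69.4, 110.1 and 46.3 (limma one-sided adjusted p = 0.0307). Sst, the hormone of delta cells, gave 9.92, 42.1 and 23.3. Ppy, the hormone of PP cells, gave 4.82, 23.3 and 86.7. Neither was called, and Ghrl, Tac1, Gast, Vip, Adcyap1, Trh and Nmu were not called either.

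The granule and its cargo were bright. All 21 measured genes for granins, prohormone processing and granule cargo were above the reference, against 62.3% of all genes. Their median level was 12.50, brighter than 96.5% of all genes. Scg3 at rank 72, Resp18 at rank 85 and Scg5 at rank 94, a chaperone of the convertase PC2, followed the granins named above. Slc30a8, which loads zinc into insulin granules, gave 7591, 7224 and 8152. Pcsk1, the convertase that opens proinsulin, gave 4393, 4312 and 3441, and Pam, which amidates peptides such as amylin, 2604, 2651 and 3141. Nptx1 had the lowest level of the list, 9.74. Pcsk2 had no single-gene probe set here.

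For the machinery that fuses granules with the membrane, 19 of 20 genes were above the reference, against 62.3% of all genes. The median of the 20 was 11.11. Snap25, the SNARE on the plasma membrane, gave 6136, 6046 and 5703, and its partners Vamp2 and Stx1a gave 1058, 1112 and 965 and 623, 706 and 680. Among calcium sensors, Syt4 ranked 719, Syt7 ranked 1442 and Syt5 ranked 7806. Cadps2, a priming factor, was the member not called, while its relative Cadps ranked 1697.

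Beta cell transcription factors were nearly all present. Of 20 measured, 18 were above the reference, against 62.3% of all genes. The median level of the 20 was 10.63, brighter than 82.9% of genes. Neurod1, a factor of all endocrine islet cells, ranked 121 with 12384, 13702 and 11836. Insm1, a zinc finger factor of endocrine cells, ranked 404 with 7670, 7630 and 7861. Pax6 and Isl1 ranked 497 and 534. Pdx1, which drives the insulin gene, ranked 583 with 6474, 6645 and 5261. Its mean level was 6.62 above the reference (95% interval 6.29 to 6.95), and array 3 was the lowest.

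Foxa2 and Mlxipl, the glucose-responsive factor ChREBP, stood at ranks 851 and 893. Nkx2-2 and Nkx6-1, which keep beta cells apart from other islet fates, stood at ranks 1522 and 2765. Nkx6-1 gave 1916, 1824 and 1615. Foxo1 and Hnf4a were dimmer at ranks 6949 and 8689. The members not called were Tcf7l2, a factor of Wnt signalling, with 7.51, 11.7 and 10.2, and Foxa1 with 14.9, 3.74 and 11.2. Mafa and Rfx6 had no single-gene probe set in the annotation used, so nothing is said of them. As sequence context for these factors, the core TAAT, which homeodomain proteins such as Pdx1 can bind, was searched on both strands of the 250 bases before each gene's start in RefSeq (GRCm38.p6). It occurred in 55.3% of 27025 promoters and in 38.2% of 9241 promoters of genes above the reference. Among beta cell transcription factors with a promoter entry it was in 12 of 17, and among islet hormones and peptides in 10 of 18. Of the bright islet genes Scg2, Npy and Chgb had no match in this window, and G6pc2 and Chga had 1 each. The Iapp promoter is printed because this gene was the brightest hormone gene and its window held 5 matches, 2 of which overlap in ATTAAT (GRCm38.p6, chr6:142298175-142298424, plus strand, matches in capitals).
Iapp: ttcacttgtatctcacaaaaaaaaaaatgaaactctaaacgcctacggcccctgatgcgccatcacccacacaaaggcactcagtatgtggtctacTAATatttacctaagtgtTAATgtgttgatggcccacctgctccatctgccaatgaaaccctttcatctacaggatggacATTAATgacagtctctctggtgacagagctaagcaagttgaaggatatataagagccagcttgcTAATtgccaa
A match is a description of the letters, and binding was not measured.

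Genes that sense glucose and couple it to secretion were mostly above the reference, 23 of 25 against 62.3% of all genes. Their median level was 10.40. After G6pc2, the brightest were Cltrn, a membrane protein of beta cells known also as collectrin, at rank 36 (15305, 17949 and 17155), and Ero1b, an oxidase that folds proinsulin, at rank 50 (15845, 15109 and 17257). Mdh1, of the shuttle that moves reducing power into mitochondria, stood at rank 87 with 12984, 16112 and 13349. Slc2a2, the glucose transporter of rodent beta cells, ranked 328 with 8488, 8765 and 8033. The potassium channel subunits Abcc8 and Kcnj11 stood at ranks 920 and 3566. Of the incretin receptors, Glp1r gave 2636, 2122 and 2163 and Gipr 377, 363 and 453. Among calcium channel subunits, the accessory Cacna2d1 stood at rank 1469 (3298, 2811 and 3511), and the pore-forming Cacna1d and Cacna1c at ranks 7750 and 8002. Adcy5 was at the limit with 62.8, 65.3 and 72.7 (limma one-sided adjusted p = 0.0755), and Adcy8 gave 9.03, 13.3 and 27.9.

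Of 13 maturity markers, 12 were above the reference, against 62.3% of all genes, with a median of 12.50. Cxcr4 was the one not called (22.9, 14.6 and 23.8). This list shares members such as G6pc2, Slc2a2, Slc30a8 and Ucn3 with the lists above, so it adds little that is separate.

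Of 30 measured genes that mature beta cells are known to keep low, 18 were above the reference by their brightest probe sets. That share of 60% is close to the 62.3% of all genes. Their median level was 7.02, against 7.85 for all genes. The brightest was Cd81, a membrane tetraspanin, with 3199, 3004 and 3661. Ldha, which turns pyruvate into lactate, gave 1829, 1884 and 4780, and Slc2a1, the glucose transporter of most other cells, gave 1732, 1885 and 3178. Both stood highest on array 3 by a wide margin. Oat, a mitochondrial aminotransferase, gave 1748, 1685 and 1489, and the lactate carrier Slc16a1 gave 748, 637 and 739. Hk1 was called at 137, 171 and 215, while the low-threshold hexokinase Hk2 was not, at 28.7, 33.5 and 43.6. Aldh1a3, a mark of beta cells that lose their identity, gave 11.1, 22 and 33.4 and was not called. Mgst1 and Pdgfra gave under 15 on each array. With suffixed probe sets left out, 11 of 24 (45.8%) were called, against 59.5% of all genes. With the probe sets of each gene averaged, 13 of 30 (43.3%) were called, against 58.7% of all genes. The shares were thus less close under these rules.

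Progenitor factors were lower. Of 17 measured, 7 were above the reference, against 62.3% of all genes, and the median was 6.08. Sox4 ranked 936 with 4349, 4375 and 4810, and Pax4, a factor of the beta lineage, ranked 6002 with 737, 511 and 733. Cdx2, an intestinal factor, followed with 381, 438 and 486. Neurog3, which starts the endocrine programme, gave 37.3, 18.9 and 24.8, Sox9 gave 2.24, 42.8 and 16.2, and neither was called.

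**Figure D2:**
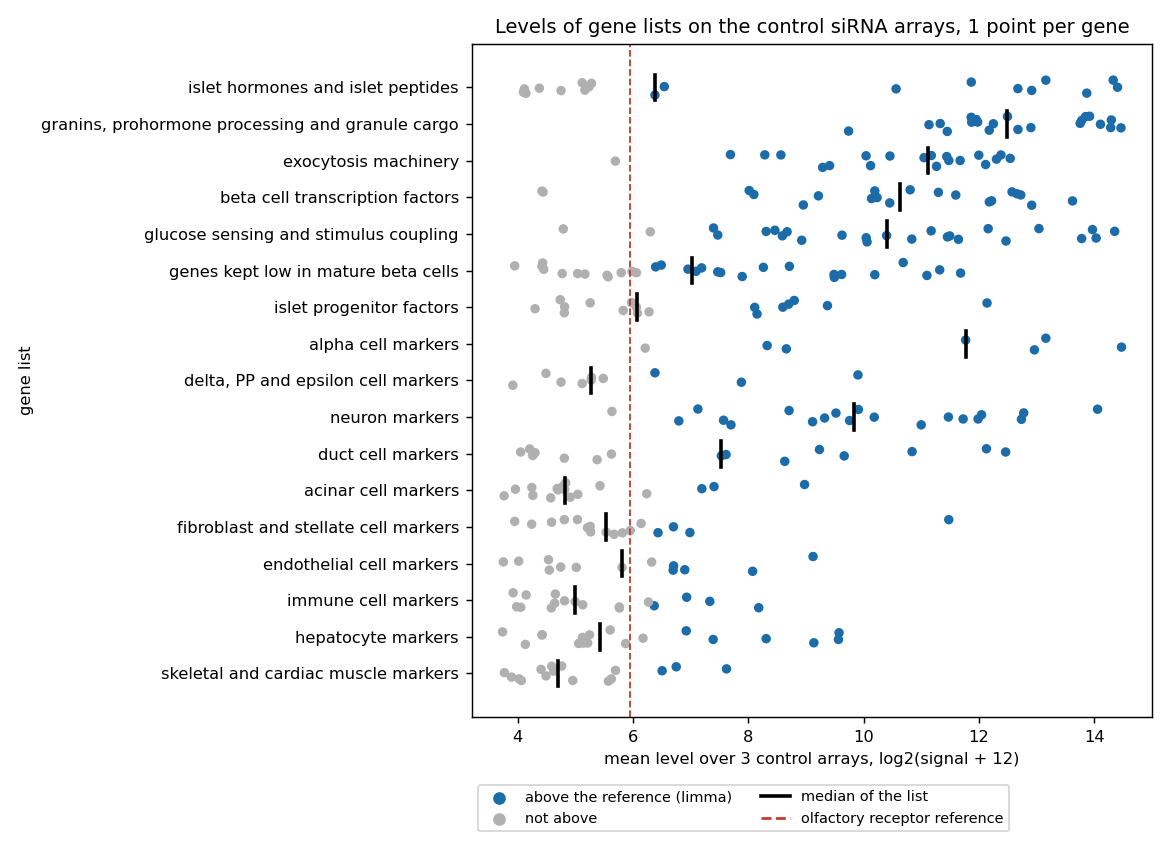
Mean level on 3 control arrays (horizontal axis, log2(signal + 12)) of each measured gene in 17 lists, blue where the gene was above the olfactory receptor reference (dashed line) and grey where it was not, with a black bar at each list's median. Granule genes have a median of 12.50 and lie wholly above the line, and acinar, immune and muscle markers have medians of 4.81, 5.00 and 4.69, below it.

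Most lists of markers of other cell types had medians under the reference mean of 5.95, with alpha cell, neuron and duct markers above it. In bulk RNA, a few cells with a high level and many cells with a low level cannot be told apart. Over all lists of other lineages, 75 of 199 genes (37.7%) were above the reference with a median level of 5.56. Without the neuron markers and the other islet markers, 48 of 163 (29.4%) remained above it, with a median of 5.25. Genes in no list had 62.1% above it and a median of 7.82. The counts by cell type that follow are to be read beside the 62.3% of all genes.

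Neuron markers had 19 of 20 above the reference and a median of 9.83. Ddc, the decarboxylase that makes dopamine and serotonin, ranked 32 with 16446, 16918 and 17837. The neurofilament genes Nefl and Nefm ranked 471 (7119, 6866 and 7051) and 491 (6431, 7407 and 6660). Th, the enzyme that commits tyrosine to dopamine, gave 3226, 3312 and 3606, and Dbh, the next enzyme towards noradrenaline, gave 321, 455 and 354. Many of these genes are shared between neurons and endocrine cells. Slc17a7, a glutamate carrier, was the member not called.

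Alpha cell markers had 6 of 7 above the reference with a median of 11.77. They were led by Ttr and Gcg, which the lists above already count. Slc38a5, an amino acid carrier, gave 7881, 8293 and 7768, Irx2 gave 377, 397 and 404, and Irx1 gave 286, 318 and 325, while Pou3f4 was not called. Delta, PP and epsilon cell markers had 3 of 10 above the reference with a median of 5.28. Of these, the somatostatin receptor Sstr3 gave 913, 979 and 945 and the retinol carrier Rbp4 187, 191 and 311. Hhex, the delta cell factor, gave 12.8, 51.7 and 24.6 and was not called.

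Of the exocrine pancreas, acinar markers had 3 of 17 above the reference with a median of 4.81. They were the factor Bhlha15 (511, 492 and 472), which other secretory cells also use, and the proteases Cela3b (155, 178 and 142) and Prss2 (100.0, 171 and 141). The enzymes Cpa1 and Cpb1 gave under 6 on every array. Duct markers had 8 of 15 with a median of 7.53. Krt7 ranked 662 with 5486, 5349 and 6108, Krt8 ranked 950 with 4843, 4449 and 4157, and the adhesion gene Epcam gave 1958, 1592 and 1944. Krt19 and Cftr, which define ductal epithelium, were not called, at 3.18, 7.75 and 3.23 and at 5.63, 14.4 and 1.56.

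Stromal and blood markers also had medians under the reference mean. Fibroblast markers had 4 of 17 above the reference with a median of 5.54, of which Col6a3 was bright with 2974, 2981 and 2585. Acta2 gave 96.9, 128 and 123 and Col1a2 71.2, 92.6 and 118. Col1a1 and Vim, the intermediate filament of mesenchyme, were not called, Vim with 12.3, 27.3 and 41.0. Endothelial markers had 5 of 13, led by Esam (620, 499 and 526), Egfl7 (276, 240 and 258) and Plvap (95.9, 109 and 118), while Pecam1, Cdh5 and Vwf were not called. Immune markers had 4 of 17, led by Coro1a (305, 290 and 244), Csf1r (81.9, 216 and 184) and Laptm5 (53.3, 280 and 83.4), while Ptprc was not called. The brightest Laptm5 probe set spread widely between arrays, and its next probe set was below the reference mean.

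Hepatocyte markers had 6 of 18 above the reference, with Serpina1b (706, 706 and 847), Apoa2 (837, 726 and 680) and Ambp (408, 468 and 875) the brightest, and Alb at 169, 165 and 136. Muscle markers had 3 of 16, namely Acta1, Mylpf and Ckm, none over 210.5 on any array. Intestinal markers had 5 of 15. Beside Cck these were Sct, the hormone secretin, with 1267, 1276 and 2652, and the dimmer Cdx2, Tff3 and Tph1. Pituitary and adrenal markers had 5 of 12, with Pomc at 350, 284 and 275. Of keratinocyte markers Krt10 and Lor were called, 2 of 8, of erythroid markers Epor and Gata1, 2 of 5, and of germ cell markers Tex101, 1 of 10.

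The 3 control arrays differed little from one another for most genes. Over the 11331 genes above the reference the median SD was 0.111 on the log2 scale, and 0.102 for the same genes on the 3 TDP siRNA arrays. The spread fell with level, from a median SD of 0.227 in the dimmest 1134 of these genes to 0.0670 in the brightest 1133. Signals ranged over 1 log2 or more in 153 genes, or 1.35% of those above the reference, and in 9.81% of all genes. Across these genes, which are not independent replicates and share array and scaling, Spearman's rho was 0.993 between arrays 1 and 2, 0.991 between arrays 1 and 3 and 0.990 between arrays 2 and 3.

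**Figure D3:**
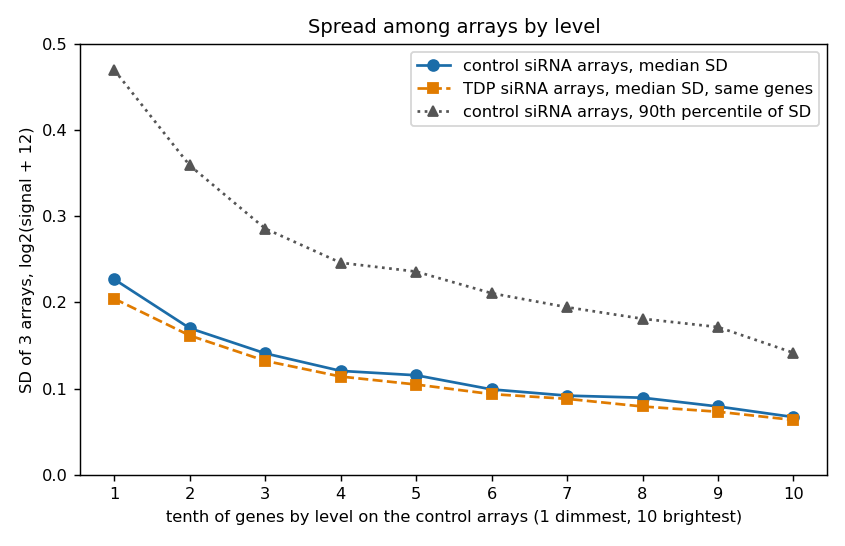
SD among 3 arrays on the log2(signal + 12) scale (vertical axis) for genes above the reference, in 10 groups of level from dimmest (1) to brightest (10). The median SD of the control arrays (blue) falls from 0.227 to 0.0670, and that of the TDP siRNA arrays for the same genes (orange) from 0.204 to 0.0636.

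Among the genes above the reference, the one with the largest spread was Lama5, a laminin chain, with 182, 2865 and 674 (SD 1.95). Its other probe sets lay at 5.70 and 3.77, under the reference mean, and did not share that spread. Egr1, an immediate early transcription factor, was next with 2751, 2919 and 517 (SD 1.40). Array 3 was low by itself. Nrxn3 (204, 210 and 34.7) was also low on array 3 by its brightest probe set. The next Nrxn3 probe set, at a mean level of 5.92, gave 22.6, 69.8 and 66.4 and was not low there. Sema3f (26.4, 68.2 and 204) was high on array 3, with its other probe sets at 4.36 and 3.95, under the reference mean. Cox8c gave 157, 842 and 416, but its other probe set gave 232, 223 and 199. Mfsd4b4 gave 144, 33.4 and 162. The others among the 10 largest spreads of genes above the reference, predicted genes left out, were Marchf10, Art1, Laptm5 and Nkx2-6. They were all dim, with mean levels under 7, and on all 4 array 1 was the lowest. These genes were picked for their spread, so their values describe the arrays and were given no test.

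Array 3 stood apart from the other 2 control arrays in a group of genes that cells raise when oxygen is short. In that response the factor Hif1a is spared from breakdown and switches on genes of glucose uptake, glycolysis, lactate export and oxygen sensing. The median of array 3 minus the mean of the other 2 was 0.87 (log2) over the 23 hypoxia response genes above the reference and 0.42 over the 20 glycolysis genes, 4 of which (Ldha, Slc2a1, Slc16a1 and Hk1) also lie in the list of genes kept low. Over all genes above the reference it was 0.01. Between arrays 1 and 2 the median difference in hypoxia response genes was -0.03. Array 3 gave the highest of the 3 signals for 22 of 23 hypoxia response genes and 18 of 20 glycolysis genes, against 37.9% of all genes above the reference. It lay at least 0.5 above both other arrays for 18 of 23 and 8 of 20, against 1.47% of all. With 3 arrays of 1 group, 1 array against 2 has no test. The gene lists were also chosen with earlier results of these data known. Such counts by list therefore describe these arrays and are no independent support.

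Ak4, a mitochondrial adenylate kinase, differed most within these lists, with 645, 674 and 1843, a difference of 1.47. A second Ak4 probe set gave 343, 369 and 1235. Higd1a, a small protein of the mitochondrial inner membrane, gave 106, 130 and 330 (1.40), Ldha 1829, 1884 and 4780 (1.36) and Adm, the peptide adrenomedullin, 199, 191 and 499 (1.30). The oxygen sensor Egln3 gave 205, 265 and 563, the mitophagy receptor Bnip3 6297, 6416 and 11757 and the brake on pyruvate use Pdk1 2197, 2532 and 4428. In each of these genes arrays 1 and 2 lay close together and array 3 above them. Hif1a itself gave 4328, 4365 and 4494, and Stc2, at 150, 212 and 178, was the member that was not highest on array 3.

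In glycolysis, Aldoa gave 12630, 11122 and 18422, Tpi1 11816, 12862 and 16343 and Pfkp, a phosphofructokinase, 2820, 2992 and 5350. The glucose transporter Slc2a1 and the lactate carrier Slc16a3 (196, 205 and 437) were also highest on array 3. Ldhb, the lactate enzyme of oxidative tissues, gave 483, 552 and 446 and was the member lowest there. Of the 21 genes that were at least 1 log2 higher on array 3 than on both other arrays, 9 belonged to these lists. The lists hold 43 of the 11331 genes above the reference. They were chosen with earlier results of these data known, so the count is no independent support.

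**Figure D4:**
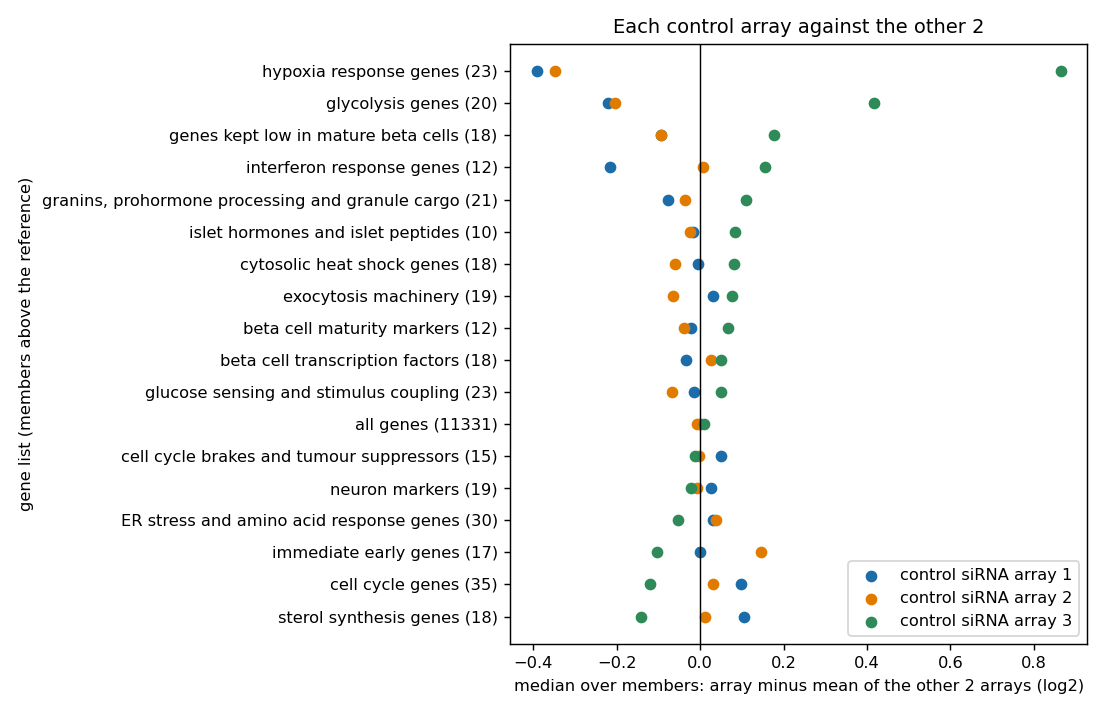
Median over the members of each list above the reference (number in brackets) of 1 control array minus the mean of the other 2, in log2 units, for lists with at least 10 such members. Array 3 (green) stands 0.87 above the others in hypoxia response genes and 0.42 in glycolysis genes, and below them in cell cycle and sterol synthesis genes.

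Promoters of the 4 genes with the largest differences within the hypoxia response and glycolysis lists are shown because the hypoxia-inducible factors are known to bind a core of ACGTG or GCGTG. The 250 bases before the start of each gene in RefSeq (GRCm38.p6) are given, with every match to either core, on either strand, in capitals. A CACGTG counts as a match on both strands.
Ldha: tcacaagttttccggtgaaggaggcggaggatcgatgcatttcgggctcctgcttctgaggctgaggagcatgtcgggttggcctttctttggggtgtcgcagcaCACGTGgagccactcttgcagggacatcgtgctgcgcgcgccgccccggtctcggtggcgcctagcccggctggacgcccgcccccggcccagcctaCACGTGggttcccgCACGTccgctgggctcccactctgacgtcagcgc
Ak4: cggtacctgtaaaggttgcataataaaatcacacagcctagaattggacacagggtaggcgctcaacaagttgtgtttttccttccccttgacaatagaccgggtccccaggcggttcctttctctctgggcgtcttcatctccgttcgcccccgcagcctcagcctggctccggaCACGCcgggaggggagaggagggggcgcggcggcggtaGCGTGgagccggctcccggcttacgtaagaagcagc
Higd1a: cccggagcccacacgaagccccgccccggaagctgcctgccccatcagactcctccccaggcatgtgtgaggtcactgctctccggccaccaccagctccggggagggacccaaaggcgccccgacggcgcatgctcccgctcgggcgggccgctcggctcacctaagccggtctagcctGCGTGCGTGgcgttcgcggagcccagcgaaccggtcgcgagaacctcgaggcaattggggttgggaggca
Adm: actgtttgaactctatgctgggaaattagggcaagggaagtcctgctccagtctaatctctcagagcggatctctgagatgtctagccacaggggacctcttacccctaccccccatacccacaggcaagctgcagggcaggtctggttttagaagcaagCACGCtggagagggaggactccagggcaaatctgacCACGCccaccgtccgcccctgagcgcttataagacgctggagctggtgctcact
They lie at chr7:46845554-46845803 on the plus strand for Ldha, chr4:101419039-101419288 on the plus strand for Ak4, chr9:121857797-121858046 on the minus strand for Higd1a and chr7:110627407-110627656 on the plus strand for Adm. The Ldha window held 5 matches and each of the others 2, which overlap by 1 base in Higd1a. ACGTG was in 11 of 22 promoters of hypoxia response genes and 10 of 21 of glycolysis genes, against 16.6% of all 27025 promoters and 22.4% of the 9241 of genes above the reference. GCGTG was in 15 of 22 and 10 of 21, against 28.2% of all and 47.0% of genes above the reference. These are shares of letters in a window, and whether the genes were bound by such a factor was not measured.

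Some immediate early genes, which cells switch on within minutes of a stimulus, were low on array 3. The list's median difference was -0.10 over 17 genes and 4 of them were at least 0.5 below both other arrays, against 0.9% of all genes above the reference. Egr1 is given above. Fos, of the AP-1 factor, gave 1474, 1903 and 634, Ier2 gave 1082, 1203 and 716 and the nuclear receptor Nr4a1 gave 1110, 1148 and 726. Jun, by contrast, gave 1007, 978 and 1196, highest on array 3. Cell cycle genes were lowest on array 3 in 23 of 35 members, against 34.7% of all genes, with a median difference of -0.12. Sterol synthesis genes were lowest there in 13 of 18, with a median difference of -0.14.

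The TDP siRNA arrays, set beside the control arrays without a test, showed smaller differences among themselves in hypoxia response genes, where the median of each array minus the mean of its other 2 was -0.08, -0.09 and 0.15. The median level of the 23 genes was 10.01, 10.07 and 10.86 on the control arrays and 10.70, 10.77 and 10.87 on the TDP siRNA arrays, so that control arrays 1 and 2 were the lowest of the 6. Ldha gave 4367, 4353 and 4547 on the TDP siRNA arrays and Ak4 1622, 1476 and 1861, close to control array 3. In the immediate early genes, TDP siRNA array 3 was low as well. Egr1 gave 7429, 9142 and 590 there, and Fos 4658, 4863 and 785. The labels do not say what arrays with the same number share, and handling before extraction was not tested. Any contrast of the TDP siRNA arrays with the control group rests, for hypoxia response and glycolysis genes, on a control group whose arrays differ by the amounts given here.

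**Figure D5:**
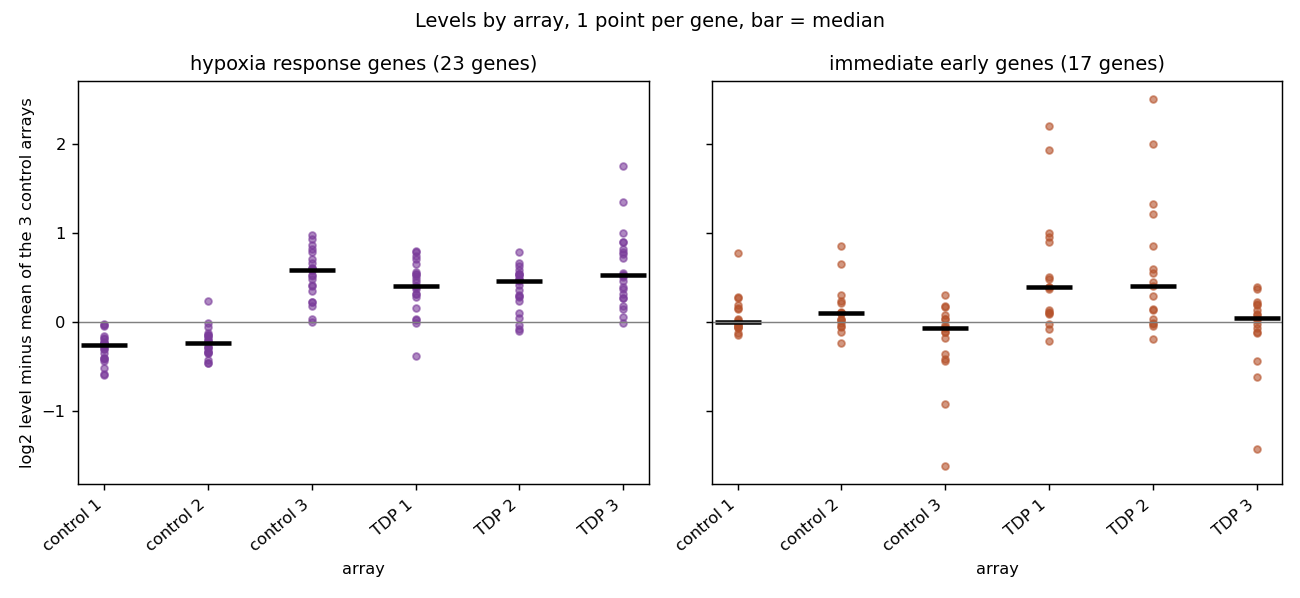
Level of each gene on each of the 6 arrays minus its mean over the 3 control arrays (vertical axis, log2), for 23 hypoxia response genes (left) and 17 immediate early genes (right), with a bar at the median. Control arrays 1 and 2 are the lowest in the left panel, and in the right panel the lowest points, from Egr1, are on control array 3 and TDP siRNA array 3.

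The remaining lists cover stress and metabolism, and their counts stand beside the 62.3% of all genes above the reference. ER stress and amino acid response genes, which also fold secreted proteins, were above the reference in 30 of 30 cases with a median of 12.15. The chaperones Hsp90b1 (16236, 16743 and 14815) and Hspa5 (14403, 14039 and 14209) led them. Cytosolic heat shock genes had 18 of 19 above it, led by Hspa8 and Hsp90aa1. Sterol synthesis genes had 18 of 18, led by Fdps with 4672, 4197 and 4218. Interferon response genes had 12 of 21, or 57.1%, close to the 62.3% of all genes, with a median of 6.59. Usp18 was the brightest of them with 1770, 1764 and 1879, and Mx1, Ifit1 and Oasl2 were not called.

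Proliferation genes were bright. Of 36 cell cycle genes 35 were above the reference, against 62.3% of all genes, with a median of 11.71. Pcna, the sliding clamp of DNA replication, gave 13747, 13884 and 13846, and Mki67, a nuclear protein of cycling cells, gave 7113, 6491 and 6244. Cdk4 and Ccnd2, the kinase and cyclin of beta cell growth, ranked 1149 and 1450, while Cdk6 was not called. Brakes of the cycle were present beside them, 15 of 15 with a median of 10.22. Cdkn2c gave 9729, 9988 and 10154, Cdkn1b 6939, 6608 and 7400 and Cdkn2a 5719, 5714 and 5933. The growth factor gene Igf2, active in the fetus and in many tumours, ranked 33 with 16649, 16278 and 18060.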

How the data were processed

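MIN6 RNA was labelled as biotinylated cRNA from 100 ng of total RNA and hybridised to 6 mouse arrays, per the labels' protocols. The authors made the deposited values, a signal intensity for 45101 probe sets, by MAS5, as the submitters' processing notes name it, the version being not given in the sources used here. The trimmed mean of each control array was 500.003. Probe sets with 1 gene in the platform annotation (34945, against 932 with several and 9160 not listed with a gene) were used, 34741 with symbols updated through RefSeq (GRCm38.p6). The value 12 was added before log2, with no further scaling. Each gene's brightest probe set over the control arrays was kept, and 7083 genes above the reference had more than 1, with a median gap of 2.63 log2 between brightest and dimmest. Among probe sets not named here, 14 were brighter than the 25th gene.

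Levels were tested against the olfactory receptor reference with limma 3.58.1 in R 4.3.3 (eBayes with an intensity trend, one-sided, Benjamini-Hochberg over 18193 genes). Array number limits the precision. On simulated data of 18193 genes for this comparison, 23% of 100 genes set 0.5 above the reference and 98% of 100 set 1 above it were recovered. Of 5955 set under it, 8 were called. Those 5955 kept their observed levels and the simulated array shifts were centred. The simulation therefore says nothing about error in the reference itself. The members and the 32 gene lists were chosen with earlier results of these data known. Named were the 25 brightest genes and, among genes above the reference that were not predicted genes, the 10 with the largest SD. Also named were leading and uncalled members of each list, the members farthest apart on 1 array, and others chosen after their values were seen. Alternatives were other pseudocounts, scalings, probe set rules, references and variance settings, and each array left out. Figures were drawn with matplotlib 3.10.9.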

Additional observations from a re-analysis of the deposited data

How the results depend on the processing

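The count of genes above the reference lay between 9879 and 12038 under every alternative but one, and was 4186 of 9183 when only genes with 1 probe set were tested. That alternative tests fewer genes, and its share was also lower, 45.6% against 62.3%. It left 6 of 7 beta cell transcription factors and 5 of 10 genes kept low. Of other-lineage markers it left 33 of 116 (28.4%, against 37.7%). The share of all genes called therefore depended on which genes and probe sets were used. Without suffixed probe sets, 11 of 24 genes kept low were called, 11 of the 25 brightest genes were shared and the lowest rank correlation between control arrays was 0.988. When the probe sets of a gene were averaged, 13 of the 25 were shared and that correlation was 0.985. By that rule 13 of 30 genes kept low (43.3%) were called, against 58.7% of all genes. The median spread was 0.134 after median centring and 0.154 over all genes. Leaving out each control array in turn gave 11108 to 11302 genes above the reference, 18 transcription factors each time, 16 to 17 genes kept low, 70 to 72 other-lineage markers, 23 to 24 shared among the brightest 25, a rank correlation of 0.990 to 0.993 and a median spread of 0.0790 to 0.102. The lowest spread came without array 3. The difference of array 3 in hypoxia response genes ran from 0.798 to 0.883, in glycolysis genes from 0.388 to 0.449 and in immediate early genes from -0.137 to -0.0826. No value reversed, and 101 of 115 alternative values were counted as close to those reported, the 13 of 30 genes kept low among them. No paired analysis was possible because the tests lie within 1 group and compare no groups that share replicate numbers. Signals near the reference limit what can be said of dim genes.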
